A study of Mus musculus with 2 samples.

Results

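Foxp3, Ikzf2 and Ikzf4, which encode the regulatory T cell transcription factors FOXP3, Helios and Eos, were followed through CD4 T cells of 3 mouse fat depots and spleen. They were taken by symbol from the raw UMI matrices and are 3 of 55487 measured genes. The cells came from wild-type (WT) male C57BL/6J mice of 8 weeks, with no treatment, and the groups compared were 3 depots of adipose tissue, brown (BAT), subcutaneous (SAT) and visceral (VAT), and spleen. Per the labels, live cells that bound antibodies to TCRb, CD3 and CD4 were sorted in 2 passes, after collagenase II digestion of fat but mechanical dissociation of spleen, so that tissue and digestion cannot be told apart between fat and spleen. Duplicates of each tissue were tagged with hashtag antibodies and pooled into 1 droplet library per experiment, 8 hashed samples in each of 2 experiments. Replicates 1 and 2 are from experiment 1 and replicates 3 and 4 from experiment 2. The labels call the duplicates biological but do not say whether each is a separate animal, so the p-values below measure the spread between hashed samples.

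FOXP3 is a forkhead protein that defines regulatory T cells (Tregs), the CD4 T cells that restrain immune responses, and mice and people without it develop severe autoimmunity. Helios and Eos belong to the Ikaros family of zinc-finger proteins, which bind DNA through N-terminal fingers and pair with each other through C-terminal ones. Helios is found in most Tregs made in the thymus but also in some activated conventional T cells, and Eos is known as a partner of FOXP3 in gene repression. The other family members are Ikaros (Ikzf1) and Aiolos (Ikzf3), which are broadly expressed in lymphocytes, and Pegasus (Ikzf5).

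In the GENCODE vM21 annotation of GRCm38, Foxp3 (ENSMUSG00000039521.13) lies on chromosome X, 7573644 to 7595245, on the plus strand. Ikzf2 (ENSMUSG00000025997.13) lies on chromosome 1, 69531214 to 69687245, and Ikzf4 (ENSMUSG00000002578.18 in the files) on chromosome 10, 128630843 to 128645991, both on the minus strand. All 3 are annotated as protein-coding, with 10, 9 and 8 transcripts. Genes annotated on the same strand overlap Foxp3 (Flicr, 227 UMIs in T cells) and Ikzf2 (Gm29112 with 38 and Gm28112 with 226), and how reads were divided between overlapping genes is not given in the sources used here. On the opposite strand Foxp3 is overlapped by Ccdc22 (952 UMIs) and Ppp1r3f (313), Ikzf2 by Gm29114 (16) and Ikzf4 by Gm26876 (4).

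The RefSeq promoter table for GRCm38.p6 had entries for 1 of the 3 genes. Both Foxp3 windows, each running from 250 bases before to 50 bases after an annotated start, are shown because the 3 genes were found together in cells and Ikaros-family fingers bind a GGGAA core. Capitals mark that core, read on either strand (TTCCC on the strand printed). The window at chrX:7579426-7579725 (plus strand) held 1 match and the window at chrX:7580233-7580532 (plus strand) held 0.
Foxp3 promoter, upstream start: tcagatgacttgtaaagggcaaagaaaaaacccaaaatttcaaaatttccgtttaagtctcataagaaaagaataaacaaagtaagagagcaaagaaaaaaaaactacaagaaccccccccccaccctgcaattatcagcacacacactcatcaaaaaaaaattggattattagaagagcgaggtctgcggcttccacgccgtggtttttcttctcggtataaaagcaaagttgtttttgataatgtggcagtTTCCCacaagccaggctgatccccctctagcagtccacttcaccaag
Foxp3 promoter, downstream start: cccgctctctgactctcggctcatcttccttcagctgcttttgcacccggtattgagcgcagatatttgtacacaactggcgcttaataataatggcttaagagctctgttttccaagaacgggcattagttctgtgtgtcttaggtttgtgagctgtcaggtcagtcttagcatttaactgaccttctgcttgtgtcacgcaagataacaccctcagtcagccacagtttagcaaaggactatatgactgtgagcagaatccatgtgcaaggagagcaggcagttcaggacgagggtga
The same letters stood in 20599 of 32851 promoters of this length (62.7%), with a median of 1 match, so a match here is a description and not a binding site.

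Of 4485 and 12239 barcodes in libraries 1 and 2, 3985 and 9004 were kept, with a median of 6107 and 4306 UMIs per cell. Clusters of other cell types were set aside, which left 12078 T cells, of which 9124 carried the hashtag of 1 sample, 282 to 928 per sample with a median of 4083 to 6692 UMIs. Cells called as holding hashtags of several samples (275 and 1148) were left out, and no other doublet call was made. Their median depth was 12280 UMIs in library 1, against 5995 in cells given to 1 sample. In library 2 it was only 2926, against 4610, and whether those cells are doublets was not tested. The hashtags of SAT replicate 1 and BAT replicate 4 stood least clear of background, and 2 barcodes occurred in both libraries among the 9124 cells. The sort label held for the lineage genes: Cd3d had a UMI in 97.6% of these cells (94.9 to 100% over the 16 samples), Cd3g in 97.7% and Cd8a in 0.373%. Cd4 transcripts were found in 53.5% (42.7 to 71.9%) and Cd8b1 in 4.86%, and Cd4 was found about as often in Foxp3-positive cells (50.2%) as in Foxp3-zero cells (53.7%).

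Over all 12078 T cells, Foxp3 had a UMI in 7.02%, Ikzf2 in 15.5% and Ikzf4 in 2.94%, against 56.9% for Ikzf1, 23.9% for Ikzf3 and 12.4% for Ikzf5. The members were thus sparse counts, with 1882, 6538 and 449 UMIs in all. "Positive" below means at least 1 UMI and "zero" means none, which at this depth is not absence of the transcript.

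Foxp3 was found in the smallest share of cells in BAT. Its share of T cells was 5.86, 3.89, 2.23 and 4.91% in BAT replicates 1 to 4, 10.5, 8.51, 5.56 and 6.97% in SAT and 11.6, 11.3, 7.81 and 6.31% in VAT, against 8.31, 11.8, 7.34 and 5.6% in spleen. The BAT samples lay below every VAT sample, while their highest was above the lowest of SAT and of spleen. Means were 4.22 ± 1.55% in BAT, 7.89 ± 2.12% in SAT and 9.26 ± 2.61% in VAT, against 8.27 ± 2.63% in spleen (SD, n = 4 each), and SAT, VAT and spleen did not differ beyond their spread. The difference BAT minus SAT came to -3.67 points (-4.63 and -2.70 within experiments 1 and 2), BAT minus VAT was -5.04 (-6.58 and -3.5) and BAT minus spleen was -4.05 (-5.20 and -2.90). Each of these gave p = 0.05556 in a two-sided exact permutation test within experiments, adjusted p = 0.111 over the 6 tissue pairs. That is the smallest p these 36 arrangements allow, so no pair could pass 0.05. With every cell thinned to 2000 UMIs the means were 2.04% in BAT, 5.05% in SAT and 5.70% in VAT, against 4.66% in spleen, after 148, 170, 56 and 24 shallower cells were left out.

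Ikzf2 separated the tissues more widely, with fat depots at both ends. It was found in 9.54, 8.08, 5.50 and 8.49% of T cells in BAT replicates 1 to 4, in 19.3, 23.1, 16.4 and 18.9% in SAT and in 25.9, 22.4, 20.4 and 18.2% in VAT, against 10.9, 14.0, 14.1 and 10.5% in spleen. No BAT sample reached a spleen sample and no spleen sample reached a sample of SAT or VAT, which overlapped each other. The means were 7.90 ± 1.72% in BAT, 19.4 ± 2.74% in SAT and 21.7 ± 3.25% in VAT, against 12.3 ± 1.94% in spleen (SD, n = 4 each). BAT minus SAT was -11.5 points, BAT minus VAT -13.8 and BAT minus spleen -4.43, and SAT and VAT were 7.09 and 9.38 points above spleen. All 5 differences kept their sign in each experiment and gave p = 0.05556 (exact permutation, the smallest possible; adjusted p = 0.0667), while SAT minus VAT, -2.29 points, gave p = 0.222. Thinned to 2000 UMIs per cell, the means were 4.61% in BAT, 13.1% in SAT and 13.9% in VAT, against 8.76% in spleen.

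Ikzf4 was rare everywhere and gave no order of tissues beyond the spread. Its share was 3.47, 1.8, 1.18 and 1.51% in BAT replicates 1 to 4, 3.32, 4.26, 1.76 and 1.83% in SAT and 5.22, 0.896, 2.38 and 2.06% in VAT, against 2.88, 6.32, 3.91 and 3.34% in spleen. The samples of all 4 tissues overlapped, with means of 1.99 ± 1.02% in BAT, 2.79 ± 1.21% in SAT and 2.64 ± 1.83% in VAT, against 4.11 ± 1.53% in spleen (SD, n = 4 each). The lowest exact permutation p over the 6 pairs was 0.111. Thinned means ran from 1.29% in VAT to 1.8% in spleen.

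**Figure D1:**
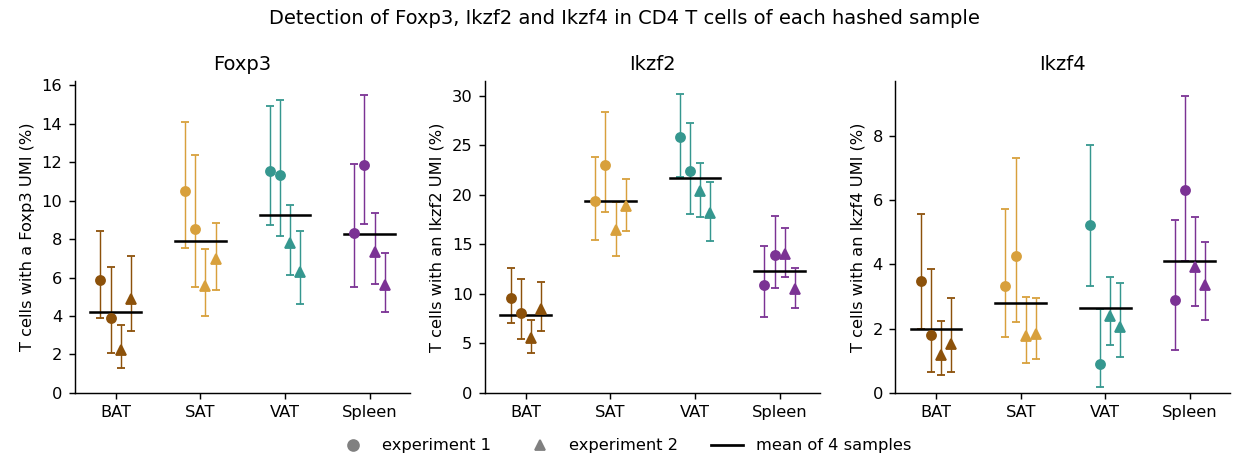
Share of T cells with at least 1 UMI of Foxp3, Ikzf2 or Ikzf4 (percent, vertical axes) in each hashed sample of BAT, SAT, VAT and spleen; markers show the experiment, lines exact 95% binomial intervals and bars the mean of 4 samples. BAT is lowest for Foxp3 (mean 4.22%) and Ikzf2 (7.90%), and Ikzf2 is highest in VAT (21.7%) and SAT (19.4%).

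Summed levels, in CPM (UMIs of the gene over all gene UMIs of the sum, on the usual scale), followed the shares. A lower sum can come from fewer cells with the gene or from less RNA per cell, which a sum cannot tell apart. Ikzf2 reached 58.9, 48.4, 34.9 and 53.5 CPM in BAT, 172.8, 145.1, 108.2 and 140.0 CPM in SAT and 153.6, 151.6, 116.2 and 104.1 CPM in VAT, against 54.6, 99.9, 104.4 and 77.2 CPM in spleen. Every BAT sample was below every SAT and VAT sample, and spleen replicate 1 fell inside the BAT range. With edgeR's quasi-likelihood test over 12928 genes, Ikzf2 was lower in BAT than in SAT (log2 fold change -1.39 ± 0.16 SE, adjusted p = 3.13e-07), VAT (-1.32 ± 0.16, adjusted p = 9.70e-07) and spleen (-0.80 ± 0.16, adjusted p = 0.00309). It was higher in SAT than in spleen (0.59 ± 0.14, adjusted p = 0.00192) and in VAT than in spleen (0.51 ± 0.14, adjusted p = 0.00626), and SAT and VAT did not differ beyond the error (0.07, adjusted p = 0.875). Of all genes tested, 30.1% were called between BAT and SAT, 27.8% between BAT and VAT, 6.04% between BAT and spleen, 35.5% between SAT and spleen, 33.2% between VAT and spleen and 3.0% between SAT and VAT, so a call of Ikzf2 was not unusual in most of these contrasts. Within experiments the contrast with spleen was uneven. SAT minus spleen was 0.91 in experiment 1 and 0.34 (adjusted p = 0.131) in experiment 2, VAT minus spleen was 0.87 and 0.22 (adjusted p = 0.361), and BAT minus spleen was -0.48 (adjusted p = 0.286) and -1.04.

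Foxp3 summed to 18.5, 11.3, 6.98 and 21.7 CPM in BAT, 39.3, 30.6, 23.9 and 34.9 CPM in SAT and 46.7, 56.6, 31.7 and 23.5 CPM in VAT, against 27.8, 48.2, 26.1 and 19.8 CPM in spleen. Only BAT replicate 4 reached into the spleen range, and no BAT sample reached the SAT or VAT range. Foxp3 was lower in BAT than in SAT (-1.05 ± 0.25, adjusted p = 0.00205), VAT (-1.31 ± 0.24, adjusted p = 1.90e-04) and spleen (-1.02 ± 0.25, adjusted p = 0.0123, edgeR). In experiment 2 alone these were -1.01, -0.98 and -0.75, none past the threshold (adjusted p = 0.0552, 0.0766 and 0.344). The contrast with spleen also missed it without BAT replicate 2 (-0.87), BAT replicate 3 (-0.83) or spleen replicate 2 (-0.83). The 3 contrasts among SAT, VAT and spleen lay between -0.25 and 0.29, and none was called. Ikzf4 was called in 0 of the 6 contrasts: it was nearest the threshold in SAT minus spleen (-0.76, adjusted p = 0.0649) and VAT minus spleen (-0.75, adjusted p = 0.0666), and passed it without spleen replicate 1 in both (-1.0 and -0.99) and without VAT replicate 1 in the second (-1.06).

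Helios and Eos transcripts were found more often in Foxp3-positive than in Foxp3-zero cells of every hashed sample. Ikzf2 was found in 63.0, 53.9, 41.2 and 65.4% of Foxp3-positive cells of BAT replicates 1 to 4, against 6.22, 6.23, 4.69 and 5.56% of Foxp3-zero cells. In SAT it was found in 86.8, 83.3, 68.3 and 83.6% of Foxp3-positive cells, against 11.4, 17.4, 13.4 and 14.0% of Foxp3-zero cells. Foxp3-positive cells stood at least 36.5 points above the Foxp3-zero cells of their own sample throughout. In VAT the shares were 82.4, 86.8, 85.5 and 79.1% of Foxp3-positive cells, against 18.5, 14.1, 14.9 and 14.1% of Foxp3-zero cells. In spleen they were 61.5, 68.9, 71.7 and 55.8% of Foxp3-positive cells, against 6.27, 6.57, 9.50 and 7.76% of Foxp3-zero cells. Over the 16 samples Ikzf2 averaged 71.1 ± 13.7% in Foxp3-positive and 10.7 ± 4.58% in Foxp3-zero cells (SD, n = 16), a difference of 60.4 points that was positive in 16 of 16 samples. An exact two-sided sign-flip permutation test over samples gave p = 3.052e-05, the smallest its sign flips allow. Within a tissue the difference was 50.2 points in BAT, 66.5 in SAT and 68.1 in VAT, against 56.9 in spleen, positive in 4 of 4 samples each (exact permutation p = 0.125, the smallest 4 samples allow). Depth per cell was a median of 4836 and a mean of 5695 UMIs in Foxp3-positive cells, against 5021 and 5302 in Foxp3-zero cells, and thinned to 2000 UMIs the averages were 66.7% and 8.36% over the 13 samples that could be compared.

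Ikzf4 followed at a lower level. It was found in 18.5, 23.1, 5.88 and 15.4% of Foxp3-positive cells of BAT, 23.7, 16.7, 12.2 and 11.5% of those of SAT, 27.5, 7.90, 10.1 and 4.65% of those of VAT and 23.1, 33.3, 13.3 and 13.5% of those of spleen. In Foxp3-zero cells it was found in 2.54, 0.935, 1.07 and 0.794% in BAT, 0.926, 3.10, 1.15 and 1.11% in SAT and 2.31, 0, 1.72 and 1.88% in VAT, against 1.05, 2.69, 3.17 and 2.74% in spleen. The 0 of VAT replicate 2 came from 297 cells, which allows a share of up to 1.01% (counting error only). Ikzf4 averaged 16.3 ± 8.07% in Foxp3-positive and 1.70 ± 0.954% in Foxp3-zero cells (SD, n = 16), 14.6 points apart and higher in 16 of 16 samples (exact sign-flip permutation p = 3.052e-05). The samples of experiment 1 tended to lie higher: over its cells Ikzf4 was found in 22.5% of Foxp3-positive cells, against 11.1% in experiment 2, whose library was shallower. Thinned to 2000 UMIs, the averages were 9.45% and 1.04%, and 11 of 13 samples were higher in Foxp3-positive cells (exact permutation p = 0.001465).

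**Figure D2:**
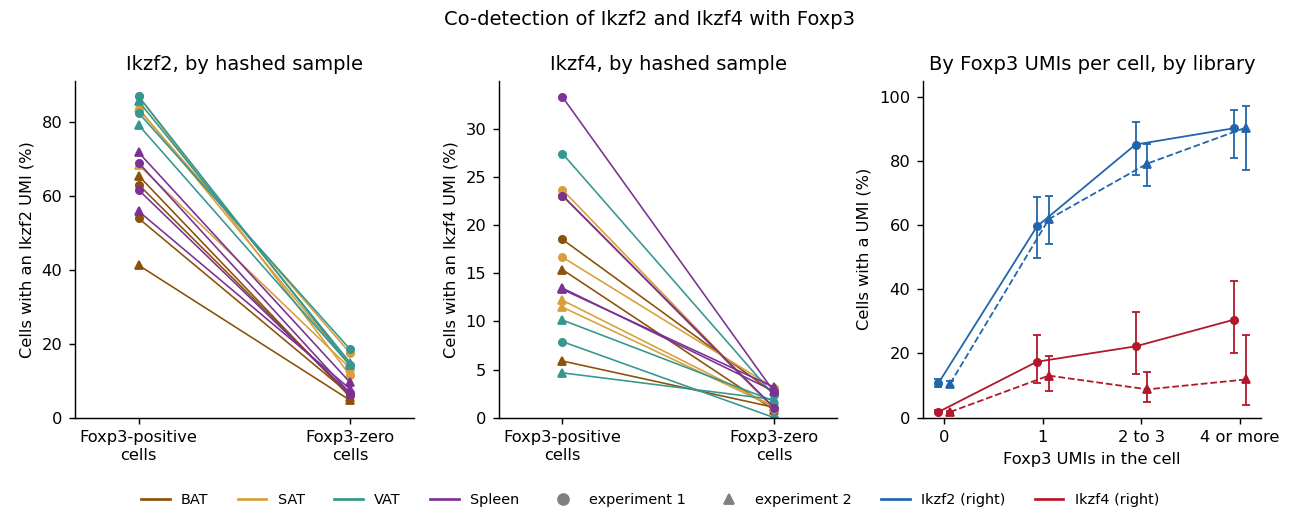
Share of cells with a UMI of Ikzf2 or Ikzf4 (percent, vertical axes) in Foxp3-positive and Foxp3-zero cells, with 1 line for each of the 16 hashed samples, and by the number of Foxp3 UMIs in the cell for each library (right, with exact 95% intervals). Each line is higher at Foxp3-positive cells, by 36.5 to 75.4 points for Ikzf2 and by 2.77 to 30.7 points for Ikzf4.

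Read the other way, most cells with Ikzf2 or Ikzf4 had no Foxp3 UMI. Of 631 Foxp3-positive cells 467 had Ikzf2 (74.0%, exact 95% interval 70.4 to 77.4%), 100 had Ikzf4 (15.9%, 13.1 to 18.9%), 88 had both and 152 had neither. Of 8493 Foxp3-zero cells 904 had Ikzf2 (10.6%, 10.0 to 11.3%), 149 had Ikzf4 (1.75%, 1.49 to 2.06%) and 64 had both. Thus 34.1% of the 1371 Ikzf2-positive cells were Foxp3-positive, against 2.12% of 7753 Ikzf2-zero cells. Of 249 Ikzf4-positive cells 40.2% were Foxp3-positive, against 5.98% of 8875 Ikzf4-zero cells. Helios and Eos also accompanied each other, with Ikzf4 in 11.1% of Ikzf2-positive and 1.25% of Ikzf2-zero cells. These pooled shares weight the samples by their cells, and their intervals cover counting error only. By sample, Foxp3 was found in 38.6, 25.9, 16.7 and 37.8% of Ikzf2-positive cells of BAT, 47.1, 30.8, 23.1 and 30.9% of SAT, 36.8, 44.0, 32.8 and 27.4% of VAT and 47.1, 58.5, 37.4 and 29.9% of spleen.

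Ikzf2 detection climbed with the number of Foxp3 UMIs in the cell, described here without a test. In library 1 it was found in 10.7% of cells with 0 Foxp3 UMIs, 59.6% with 1, 85.2% with 2 or 3 and 90.3% with at least 4. In library 2 the shares were 10.6, 61.9, 79.3 and 90.5% over the same steps. The cells with 1 Foxp3 UMI were the shallowest (median 5127 and 4020 UMIs in libraries 1 and 2) and those with at least 4 the deepest (6260 and 5174). Ikzf2 levels in the same steps were 43.8, 510.5, 858 and 972.5 CPM in library 1 and 53.6, 721, 724 and 919 CPM in library 2. Ikzf4 showed no such climb in library 2, where its share was 1.76, 13.1, 8.81 and 11.9%, and in library 1 it was 1.74, 17.4, 22.2 and 30.6%. A count of 1 was common for Foxp3: it made up 41.6% of Foxp3-positive cells in library 1 and 45.5% in library 2. For Ikzf4 it made up 78.1% and 84.0% of positive cells, so most Ikzf4 calls rest on 1 molecule. Ikzf2-positive cells carried a mean of 6.83 and 5.09 Ikzf2 UMIs (libraries 1 and 2) when Foxp3-positive, and 2.63 and 2.42 when Foxp3-zero.

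The share of Foxp3-positive cells with Ikzf2 also differed between tissues. It averaged 55.8 ± 11% in BAT, 80.5 ± 8.31% in SAT and 83.4 ± 3.47% in VAT, against 64.5 ± 7.20% in spleen (SD, n = 4 each), and every BAT sample lay below every SAT and VAT sample. BAT minus SAT was -24.7 points, BAT minus VAT was -27.6 and VAT minus spleen was 19.0, with exact permutation p = 0.05556 (adjusted p = 0.111) for each of these 3 pairs, the smallest possible. SAT minus spleen was 16.1 points (exact permutation p = 0.111). By the clusters described below, Foxp3-positive cells were not all Treg-like. In BAT 51 of them were Treg-like and 13 naive-like, in SAT 121 and 4, in VAT 167 and 3 and in spleen 156 and 10. The part of this make-up in the Ikzf2 share was not tested. Ikzf2 levels within Foxp3-positive cells were 709, 726, 365 and 670 CPM in BAT, 920, 959, 686 and 1025 CPM in SAT and 795, 927, 769 and 846 CPM in VAT, against 310, 668, 761 and 495 CPM in spleen. Across 8436 genes edgeR called Ikzf2 in 1 of 6 contrasts of these cells, SAT above spleen (0.62 ± 0.17, adjusted p = 0.0231), where 5.37% of genes were called. The share of genes called was 6.73% between VAT and spleen, 0.391% between BAT and spleen, 1.99% between BAT and SAT, 2.52% between BAT and VAT and 0.0948% between SAT and VAT. The SAT call was lost without SAT replicate 4 (0.50), spleen replicate 1 (0.40) or spleen replicate 4 (0.56). VAT minus spleen was 0.50 (adjusted p = 0.0726) and BAT minus SAT was -0.51 (adjusted p = 0.178). Foxp3 itself averaged 357 CPM in Foxp3-positive cells of BAT, 369 in SAT and 418 in VAT, against 384 in spleen, a level that the definition of the cells sets in part.

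The clusters, built without the 3 genes and without T cell receptor genes, placed Foxp3 mainly in 2 Treg-like clusters. Cluster 14, led by Frmd5, Cxcl2, Areg and Il10 and holding Il1rl1 (the ST2 receptor for interleukin 33), had Foxp3 in 75.7% of 489 cells, Ikzf2 in 94.1% and Ikzf4 in 17.6%. Cluster 6, with Lrrc32, Gpr83, Il2ra, Flicr and Izumo1r among its top genes, had Foxp3 in 45.5% of 497 cells, Ikzf2 in 66.6% and Ikzf4 in 19.1%. So the clusters differed in Foxp3 and Ikzf2 but little in Ikzf4. Flicr overlaps Foxp3 on the same strand and was not among the genes left out of the clustering. The part of Flicr in forming cluster 6 was not tested. The Th17-like cluster had Foxp3 in 6.15%, Ikzf2 in 26.1% and Ikzf4 in 2.93% of 1024 cells, and the main Th1-like cluster had 1.31%, 20.6% and 0.597% of 1676 cells. In the naive-like clusters, Foxp3 was found in 0.828 and 1.25%, Ikzf2 in 1.93 and 2.63% and Ikzf4 in 1.66 and 1.82% of 1812 and 2089 cells.

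Clusters named for other cell types were taken as a guide to stray RNA. Fibroblasts (183 cells, median 4031 UMIs) had Foxp3 in 2.73%, Ikzf2 in 5.46% (exact 95% interval 2.65 to 9.82%) and Ikzf4 in 1.09% (0.133 to 3.89%). Erythroid cells (578 cells, median 1478 UMIs) had Foxp3 in 3.46%, Ikzf2 in 9.0% and Ikzf4 in 1.04%, and myeloid cells (150 cells, median 6092 UMIs) had 9.33%, 14.7% (9.43 to 21.4%) and 3.33%. These clusters were not free of T cell RNA, with Cd3d in 41.0% of the fibroblasts, 79.8% of the erythroid cells and 55.3% of the myeloid cells. The erythroid cluster, with 573 of its 578 cells from library 2, shared the top genes Gm12940, Slc39a1 and Abhd2 with unnamed cluster 17. Cluster 17 was kept among the T cells (median 1552 UMIs). Whether the 3 clusters hold T cells was not tested, so their shares do not measure stray RNA alone. Shares of Foxp3 and Ikzf2 in naive-like cells (median 5155 and 5542 UMIs) lay below all 3 clusters, and no expression is read from them. The same holds for Foxp3 in Th1-like cells. Ikzf4 in Foxp3-zero cells (1.75%) was within the fibroblast interval, and no expression outside the Treg-like clusters is read from this pooled share. Unnamed cluster 2 stood higher, with Ikzf4 in 9 of 148 Foxp3-zero cells (6.08%, exact 95% interval 2.82 to 11.2%), 8 of them in VAT. Ikzf2 was found in 2.03% of those 148 cells. The Ikzf4 interval overlaps that of the fibroblasts, and the difference was not tested. For Ikzf2 in Th1-like cells, the interval of the myeloid share reaches the share, and the part of stray RNA in it was not tested. Summed Ikzf2 was 68.9 CPM beside 4.49 CPM of Foxp3 in the main Th1-like cluster and 81.9 beside 15.7 CPM in the Th17-like cluster. It was 988.6 beside 333.9 CPM in cluster 14, 73.5 beside 25.8 CPM in myeloid cells, 63.1 beside 20.7 CPM in erythroid cells and 17.2 beside 4.54 CPM in fibroblasts.

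**Figure D3:**
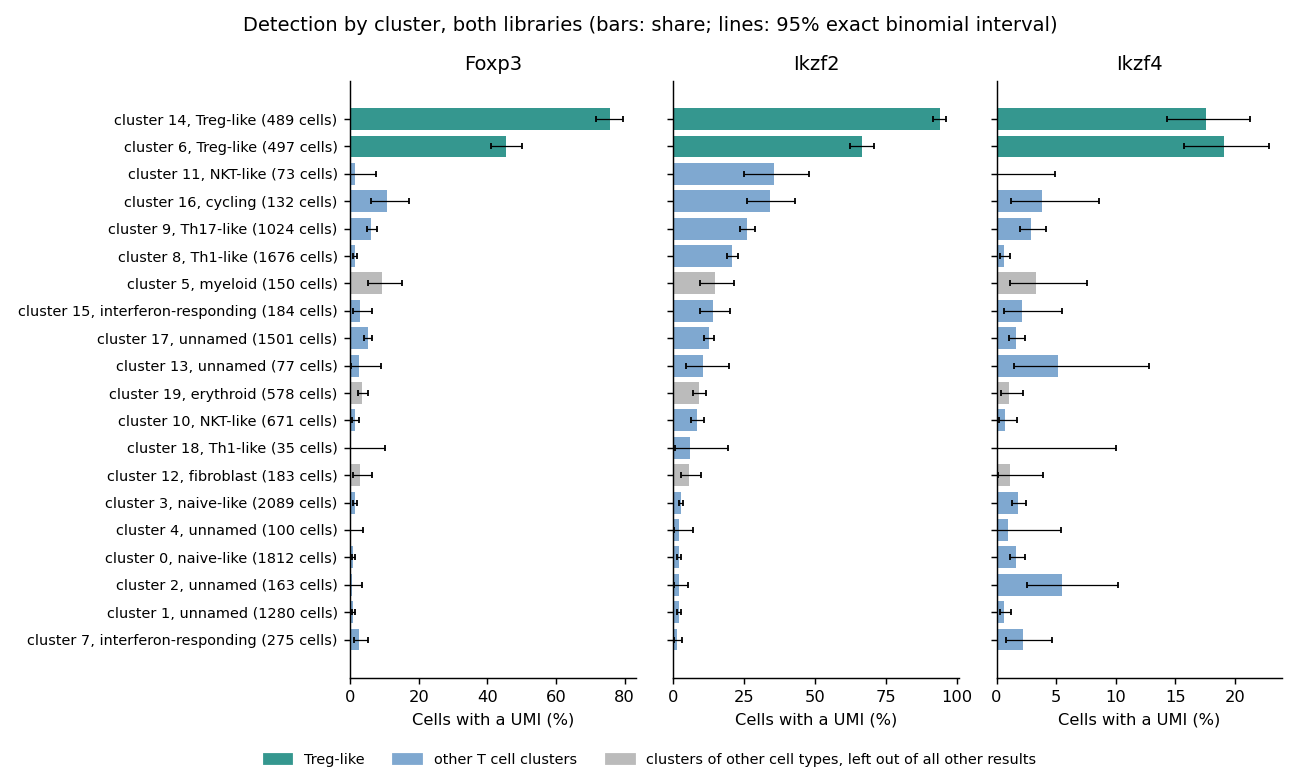
Share of cells with a UMI of Foxp3, Ikzf2 or Ikzf4 (percent, horizontal axes) in each cluster, T cell and other. Lines are exact 95% binomial intervals. Foxp3 is highest in the Treg-like clusters 14 (75.7%) and 6 (45.5%), while Ikzf2 is also found in Th17-like (26.1%) and Th1-like (20.6%) cells, beside 5.46% in fibroblasts and 14.7% in myeloid cells.

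Ikzf2 without Foxp3 was found mostly outside the Treg-like clusters. Of the 904 such cells 30.9% were Th1-like, 27.8% Treg-like, 17.4% Th17-like, 7.19% naive-like and 6.20% NKT-like. Among Foxp3-zero cells, Ikzf2 was found in 75.6% of 332 Treg-like, 23.1% of 681 Th17-like, 19.2% of 1456 Th1-like, 9.14% of 613 NKT-like and 2.01% of 3228 naive-like cells. The NKT-like share joined unlike clusters. Cluster 11, led by NK receptor genes such as Klrc2, Klre1 and Ncr1, had Ikzf2 in 35.6% of 73 cells (exact 95% interval 24.8 to 47.7%), above the interval of the myeloid share, and 102.7 CPM of Ikzf2 beside 2.23 CPM of Foxp3. The larger NKT-like cluster had it in 8.35% of 671 cells (6.37 to 10.7%) and 25.6 CPM beside 4.02 CPM of Foxp3. That share overlapped those of the erythroid cells, which were shallower (median 1478 against 5476 UMIs), and of the fibroblasts, and is not read as expression. With both clusters together, Ikzf2 was found in Foxp3-zero NKT-like cells at 3.83 ± 3.6% in BAT (n = 3), 6.1 ± 3.37% in SAT and 12.9 ± 7.22% in VAT (n = 4 each), against 31.0% in spleen (23.1 and 38.9% in replicates 3 and 4, from 31 cells), and this was not tested. In Treg-like Foxp3-zero cells that were Ikzf2-positive the mean was 5.33 and 4.15 Ikzf2 UMIs (libraries 1 and 2), near that of Foxp3-positive cells. Outside those clusters it was 1.8 and 1.69, with 59.9% and 64.0% of positive cells at 1 UMI. Cycling cells, which were deep (median 12950 UMIs in 97 Foxp3-zero cells), had Ikzf2 in 24.7%. The 149 Ikzf4-positive Foxp3-zero cells were Treg-like in 36.2% and naive-like in 35.6%, but that is 16.3% of Foxp3-zero Treg-like and 1.64% of Foxp3-zero naive-like cells.

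Across tissues the share of Foxp3-zero cells with Ikzf2 averaged 5.67 ± 0.730% in BAT, 14.1 ± 2.51% in SAT and 15.4 ± 2.08% in VAT, against 7.53 ± 1.47% in spleen (SD, n = 4 each). Every SAT and VAT sample lay above every BAT and spleen sample, and BAT lay just below spleen, its highest at 6.23% and the lowest of spleen at 6.27%. BAT minus SAT was -8.38 points and BAT minus VAT -9.72, and SAT and VAT were 6.53 and 7.87 points above spleen (exact permutation p = 0.05556, the smallest possible; adjusted p = 0.0667). BAT minus spleen, -1.85 points, was -0.194 in experiment 1 and -3.51 in experiment 2. Thinned, the means were 3.67% in BAT, 9.75% in SAT and 10.2% in VAT, against 6.61% in spleen. In CPM, Ikzf2 of Foxp3-zero cells was 23.2, 19.8, 27.3 and 24.6 in BAT, 61.2, 67.1, 63.5 and 72.2 in SAT and 61.3, 59.3, 57.8 and 55.5 in VAT, against 30.4, 30.3, 56.5 and 54.9 in spleen. The 2 experiments differed in spleen, where replicates 3 and 4 approached the VAT samples. Among 12675 genes edgeR called Ikzf2 lower in BAT than in SAT (-1.33 ± 0.15, adjusted p = 1.26e-07; 29.4% of genes called), VAT (-1.20 ± 0.15, adjusted p = 9.96e-07; 25.7%) and spleen (-0.88 ± 0.15, adjusted p = 4.06e-04; 6.04%), and higher in SAT than in spleen (0.44 ± 0.12, adjusted p = 0.00663; 35.1%). VAT minus spleen was 0.31 (adjusted p = 0.0573; 31.7% of genes called), and between SAT and VAT, where 3.31% were called, it was not.

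The cell classes that make up Foxp3-zero cells differed between tissues. Th1-like cells were 2.07, 4.98, 7.23 and 6.94% of Foxp3-zero cells in BAT replicates 1 to 4, a mean of 33.9% in SAT and 36.2% in VAT, and 0.348, 0, 0.528 and 0.457% in spleen. Mean shares of naive-like cells were 59.8% in BAT, 18.7% in SAT and 20.8% in VAT, against 64.2% in spleen. The experiments differed here, with 80.2, 81.9, 41.4 and 35.7% in BAT replicates 1 to 4 and 78.4, 78.8, 47.4 and 52.1% in spleen. Unnamed cluster 1, with 96 cells in library 1 and 1184 in library 2, made up 20.9% of T cells in BAT and 16.6% in spleen. Within a class, counting samples with at least 10 Foxp3-zero cells of it, the depots overlapped. In Th1-like cells Ikzf2 was found in 24.0 ± 12.8% in BAT (n = 3, 105 cells), 20.5 ± 3.26% in SAT (n = 4, 640 cells) and 17 ± 3.23% in VAT (n = 4, 693 cells). In Th17-like cells it was 23.1 ± 6.37% in BAT (n = 3), 25.9 ± 9.67% in SAT (n = 3), 25.0 ± 2.13% in VAT (n = 4) and 18.8 ± 9.02% in spleen (n = 4). These within-class values were not tested. In Foxp3-zero Treg-like cells it was 71.5 ± 14.7% in BAT, 82.4 ± 3.34% in SAT and 88.2 ± 10.0% in VAT, against 70.2 ± 8.74% in spleen (n = 3 to 4). Naive-like cells stayed at 2.11, 1.99, 2.01 and 1.73% in BAT, SAT, VAT and spleen.

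**Figure D4:**
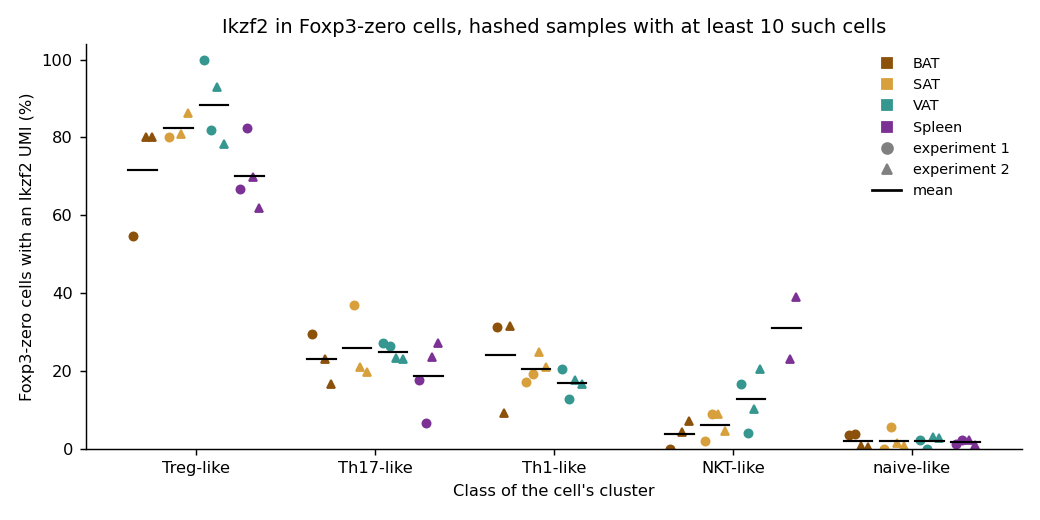
Share of Foxp3-zero cells with a UMI of Ikzf2 (percent, vertical axes) by class and tissue, for hashed samples with at least 10 Foxp3-zero cells of the class; markers show the experiment and bars the mean. Treg-like cells are highest in all 4 tissues (70.2 to 88.2%), and in Th1-like cells BAT (24.0%), SAT (20.5%) and VAT (17%) overlap.

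Cells with Foxp3 were then compared with Foxp3-zero cells of the same hashed sample, on summed counts of 16 samples (631 and 8493 cells). Ikzf2 reached 758 CPM in Foxp3-positive cells, against 49.9 CPM in Foxp3-zero cells, and was higher in 16 of 16 samples (log2 fold change 3.71 ± 0.09 SE, edgeR adjusted p = 6.19e-41). Ikzf4 reached 38.7 CPM, against 3.82 CPM, also higher in 16 of 16 (3.18 ± 0.25, adjusted p = 3.24e-16). Of 13194 genes 6.62% were called higher and 9.5% lower in Foxp3-positive cells. The split depends on scaling: 874 genes were higher and 1254 lower with TMM factors, 1658 (12.6%) and 528 (4.0%) by library size alone, and 1135 and 787 with RLE factors, and the median of all genes was -0.08, 0.12 and 0.02. Ikzf2 at 3.92 and Ikzf4 at 3.4 by library size stood clear of that shift.

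Surface and effector genes of Tregs accompanied Foxp3: 20 of 20 were higher in Foxp3-positive cells under both scalings, with a median of 2.99 against -0.08 for all genes. They included Il10, an inhibitory cytokine (5.41 ± 0.45), Lrrc32, which holds latent TGF-beta (3.8), Areg, a tissue-repair growth factor (3.76), Il2ra, the high-affinity IL-2 receptor chain (3.69), Ctla4 (3.65 ± 0.10), Il1rl1 (3.22), Klrg1 (2.91) and Nrp1 (2.33). Of 26 genes for FOXP3 partners and regulators 6 were higher and 7 lower (9 and 5 by library size), among them Irf4 (1.85), Nr4a1 (1.2) and Gata3 (0.79) on the higher side and Satb1 (-1.10 ± 0.11), Bach2 (-0.69), Runx3 (-0.62) and Foxp1 (-0.60) on the lower. Genes of naive cells were lower, 9 of 10 (8 of 10 by library size, median -1.14), led by Dapl1 (-2.74), Igfbp4 (-2.25), Tcf7 (-1.54) and Lef1 (-1.25). Of 10 Th1 genes 7 were lower (5 by library size) and 1 higher, the lower ones led by Ifng (-2.12 ± 0.15). Of 10 NKT and innate-like genes 8 were lower, led by Xcl1 (-3.75) and Klrk1 (-3.47), and Il2rb was higher (0.65). Among Tfh genes 4 of 9 were higher (7 by library size), including Tox2 (2.38), Pdcd1 (1.21) and Maf (1.15), and Slamf6 was lower (-0.44; not called by library size). Of 10 genes of T cell receptor activation 3 were higher and 1 lower (4 and 1 by library size).

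Past the lists, the genes named by size of change included Cxcl2 and Frmd5, which lead cluster 14. The chemokine Cxcl2 reached 185 CPM in Foxp3-positive and 0.622 CPM in Foxp3-zero cells, higher in 10 of 16 samples (7.09 ± 0.39), Frmd5 reached 46.2 and 0.622 CPM (5.54 ± 0.35, 11 of 16) and the protease gene Ctsh 29.8 and 0.666 CPM (4.63). Klra1, an NK receptor gene, had 0 UMIs in Foxp3-positive cells, against 503 UMIs (11.2 CPM) in Foxp3-zero cells, and Trgv2 was lower (0.835 against 18.3 CPM, -4.71). Since Cxcl2 and Ctsh are also myeloid genes, the 5 myeloid markers were summed. They gave 42.1, 118 and 229 CPM (lowest, median and highest sample) in Foxp3-positive and 53.1, 108 and 197 CPM in Foxp3-zero cells. Of these markers 1 was called higher and 2 lower in Foxp3-positive cells (the same counts by library size). The part of myeloid RNA was not tested. The 4 B cell markers summed to 0, 18.5 and 42.1 CPM in Foxp3-positive cells and to 0.926, 3.08 and 6.98 CPM in Foxp3-zero cells. Their Cd79b was called higher (2.82 ± 0.35), and the part of B cell RNA in the Foxp3 comparison was not tested.

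Within Foxp3-positive cells, those with and without Ikzf2 were compared in the 8 samples with at least 10 cells of both (274 and 107 cells). These were BAT replicate 1, SAT replicates 3 and 4, VAT replicate 3 and spleen replicates 1 to 4. Spleen thus gave more samples than any depot, and the part of tissue in the result was not tested. Over all 16 samples, 495 of the 631 Foxp3-positive cells were Treg-like, 36 Th17-like, 30 naive-like, 21 in unnamed cluster 17 and 14 Th1-like. The comparison did not separate these classes, and their part in the result was not tested. Foxp3 itself was 413 CPM in Ikzf2-positive and 342 CPM in Ikzf2-zero cells (0.24 ± 0.17, adjusted p = 0.711), and Ikzf4 was 44.2 and 22.5 CPM (1.15 ± 0.48, adjusted p = 0.264, edgeR), so neither passed the test. Of 6459 genes 119 were higher (1.84%) and 37 lower (0.573%). By library size they were 118 (1.83%) and 45 (0.697%), and with RLE factors 107 and 72. Of 18 Treg surface genes tested 10 were higher and none lower, median 1.29 against 0.13 for all genes. Tnfrsf4, the OX40 receptor, was higher by 2.14 ± 0.21, Klrg1 by 4.07 ± 0.50 (153.8 CPM in Ikzf2-positive and 5.63 in Ikzf2-zero cells, 8 of 8 samples), Il1rl1 by 3.0, Nrp1 by 1.41, Icos by 1.31 and Ctla4 by 1.28. Areg had 58.8 CPM in Ikzf2-positive cells and 0 UMIs in Ikzf2-zero cells. Gzmb, a granzyme, reached 177.6 and 3.75 CPM (4.06). Naive genes were lower in 6 of 10, with Dapl1 at 15.9 CPM in Ikzf2-positive and 140.7 CPM in Ikzf2-zero cells (-3.19, lower in 8 of 8), Igfbp4 (-2.51), Satb1 (-1.46) and Ccr7 (-1.31). Summed UMIs per cell were 5528 in Ikzf2-positive and 4980 in Ikzf2-zero cells. Thinned to 2000 UMIs, when 5 samples and 2291 genes could be tested, 4 genes were called.

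The same comparison in Foxp3-zero cells (904 and 7589 cells, 16 samples) placed Ikzf4 beside Ikzf2. Ikzf4 was 15.3 CPM in Ikzf2-positive and 2.33 CPM in Ikzf2-zero cells, higher in 14 of 16 samples (2.60 ± 0.32, edgeR adjusted p = 2.85e-08). Of 12913 genes 497 were higher (3.85%) and 929 lower (7.19%) with TMM, 1196 (9.26%) and 302 (2.34%) by library size, and 675 and 451 with RLE factors. Treg surface genes were higher in 17 of 19 (18 by library size; median 1.88), led by Lrrc32 (4.0 ± 0.40), Itgae (3.37), Areg (2.89), Il2ra (2.69), Tnfrsf4 (2.66) and Ctla4 (2.33), while Klrg1 (0.28) was not called. Tfh genes were higher in 9 of 10 (median 1.45), including Tox2 (2.77), Il21 (2.71), the follicle-homing receptor Cxcr5 (2.38) and Pdcd1, the PD-1 receptor (2.28 ± 0.20). All 10 naive genes were lower (median -1.10), with Igfbp4 at -2.50 and Dapl1 at -2.14. Itgb8, which encodes a TGF-beta-activating integrin chain, led the genes outside the lists (5.83 CPM against 0.0752 CPM, 5.17 ± 0.55). Gm28112, which overlaps Ikzf2 on its strand, was also higher (10.5 against 0.301 CPM), and shared reads cannot be told apart from its own. Cd79b was higher here too (1.93), with B markers at a median of 7.58 CPM in Ikzf2-positive and 2.26 CPM in Ikzf2-zero cells, whose part in the result was not tested.

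The comparison was repeated with the Treg-like clusters left out (645 and 7198 cells, 15 samples). Of 12585 genes 279 were higher (2.22%) and 659 lower (5.24%). By library size they were 690 (5.48%) and 231 (1.84%), and with RLE factors 416 and 333. Treg surface genes were higher in 11 and lower in 1 of 18 (median 0.71): Itgae (2.29), Tnfrsf4 (1.68 ± 0.20), Nrp1 (1.61 ± 0.20), Tigit (1.60) and Ctla4 (1.29 ± 0.22) were higher, Klrg1 was lower (-1.24 ± 0.32), and Il2ra (0.52) and Gpr83 (-1.65) were not called. Tfh genes were higher in 8 of 10 (median 1.38), with Tox2 (2.06), Cxcr5 (2.02), Pdcd1 (1.73 ± 0.26) and Maf (1.41 ± 0.14), and naive genes were lower in 10 of 10 (9 by library size). Of 10 Th1 genes 4 were higher, Cxcr3 (0.63), Cxcr6 (0.59), Il18r1 (0.45) and Stat4 (0.31), and of 5 cycling markers 3 were higher, Cdk1 (1.43), Birc5 (1.13) and Mki67 (1.08). Ikzf2-positive cells of this comparison were deeper, with 6039 summed UMIs per cell against 5199 in Ikzf2-zero cells, and the part of depth was not tested. Ikzf4 was 5.39 CPM in Ikzf2-positive and 2.17 CPM in Ikzf2-zero cells, from 21 and 81 UMIs (1.24 ± 0.43, adjusted p = 0.0683), and passed by library size (adjusted p = 0.0297) and in DESeq2 (adjusted p = 0.0444) but not in the edgeR test with TMM. Restricted to Th1-like cells, a comparison chosen after the clusters were seen (263 and 1105 cells, 9 samples), of 8932 genes 15 were higher (0.168%) and 30 lower (0.336%). By library size 15 (0.168%) and 19 (0.213%) were, and with RLE factors 16 each. Maf, a transcription factor, was 555 CPM in Ikzf2-positive and 307 CPM in Ikzf2-zero Th1-like cells (0.81 ± 0.08, higher in 9 of 9), Nrp1 (0.81) and Izumo1r (0.89) were higher, and Klrg1 (-1.97), Cx3cr1 (-2.04), Ccl5 (-0.55) and Ifng (-0.44) were lower.

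Ikzf2-positive cells without Foxp3 were set against Ikzf2-positive cells with Foxp3 (849 and 453 cells, 14 samples). The sides differed in cell class. Over all samples, 27.8% of Ikzf2-positive Foxp3-zero cells were Treg-like and 30.9% Th1-like. Of the 631 Foxp3-positive cells, with or without Ikzf2, 495 were Treg-like. The comparison did not separate the classes, and their part in the values below was not tested. Ikzf4 was 16.1 CPM in the Foxp3-zero and 43.6 CPM in the Foxp3-positive cells, lower in 12 of 14 samples (-1.22 ± 0.26, edgeR adjusted p = 7.49e-04), but in experiment 2 alone it was -0.78 (adjusted p = 0.275). Of 9661 genes 387 were higher (4.01%) and 321 lower (3.32%). By library size they were 251 (2.6%) and 426 (4.41%), and with RLE factors 308 and 370. Of 20 Treg surface genes 16 were lower in the Foxp3-zero cells and none was higher (median -1.48), the lower ones including Il10 (-4.40), Klrg1 (-2.87 ± 0.17), Il1rl1 (-2.45), Ctla4 (-2.21 ± 0.13) and Il2ra (-1.95), while Nt5e (0.09), Gpr83, Tigit and Entpd1 were not called. Markers of other cells moved too: the B cell markers had a median sum of 7.29 CPM in Foxp3-zero and 22.1 CPM in Foxp3-positive cells, with Cd79b lower (-1.60 ± 0.39), and the myeloid marker Cst3 was lower (-0.43 ± 0.12). Their part in the result was not tested. Th1 genes were higher in 8 of 9 (median 1.05), led by Ifng (2.04 ± 0.17) and Ccl5 (1.51), and NKT and innate-like genes in 6 of 9 (median 2.14), led by Klrk1, an activating NK receptor (4.55). Naive genes were higher in 5 of 10 (4 higher and 1 lower by library size). Cxcl2 was 2.68 CPM in Foxp3-zero and 248 CPM in Foxp3-positive cells (-6.05), but it read 0.50 when cells were thinned to 2000 UMIs.

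Too few samples held 10 Foxp3-positive cells of each kind to test Ikzf4 within Foxp3-positive cells. Among Foxp3-zero cells, Ikzf4-positive and Ikzf4-zero cells were compared in 5 samples (85 and 3435 cells). These were BAT replicate 1, VAT replicates 3 and 4 and spleen replicates 3 and 4, and no SAT sample held 10 Ikzf4-positive cells. Ikzf2 was 334 CPM in Ikzf4-positive and 44.0 CPM in Ikzf4-zero cells (2.46 ± 0.20, edgeR adjusted p = 4.20e-30), higher in 4 of 5 samples. The difference came mainly from experiment 2 (383.3 against 47.2 CPM). It was 29.3 against 23.0 CPM in experiment 1, for which BAT replicate 1 alone stood. DESeq2 gave 1.91 (adjusted p = 0.0416). Each sum of Ikzf4-positive cells held only 11 to 24 cells. Of 10976 genes 15 were higher (0.137%) and 85 lower (0.774%). By library size they were 20 (0.182%) and 9 (0.082%), and with RLE factors 19 and 9. Treg surface genes were higher in 6 of 17, with Lrrc32 (2.91), Il2ra (2.22), Tnfrsf4 (1.93) and Ctla4 (63.1 against 15.9 CPM, 1.78, 5 of 5 samples), and Th1 genes lower in 4 of 10 (3 by library size), with Cxcr6 (-2.67) and Ifng (-3.55, though higher in 2 of 5 samples). Ifng missed the threshold without VAT replicate 3 (-2.25) or VAT replicate 4 (-2.88) and read 1.29 with at least 20 cells per sum. Markers of CD8 T cells summed to 0, 6.85 and 412.5 CPM in Ikzf4-positive and 12.4, 19.3 and 23.0 CPM in Ikzf4-zero cells (lowest, median and highest sample), so 1 sample stood apart, and its part was not tested.

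**Figure D5:**
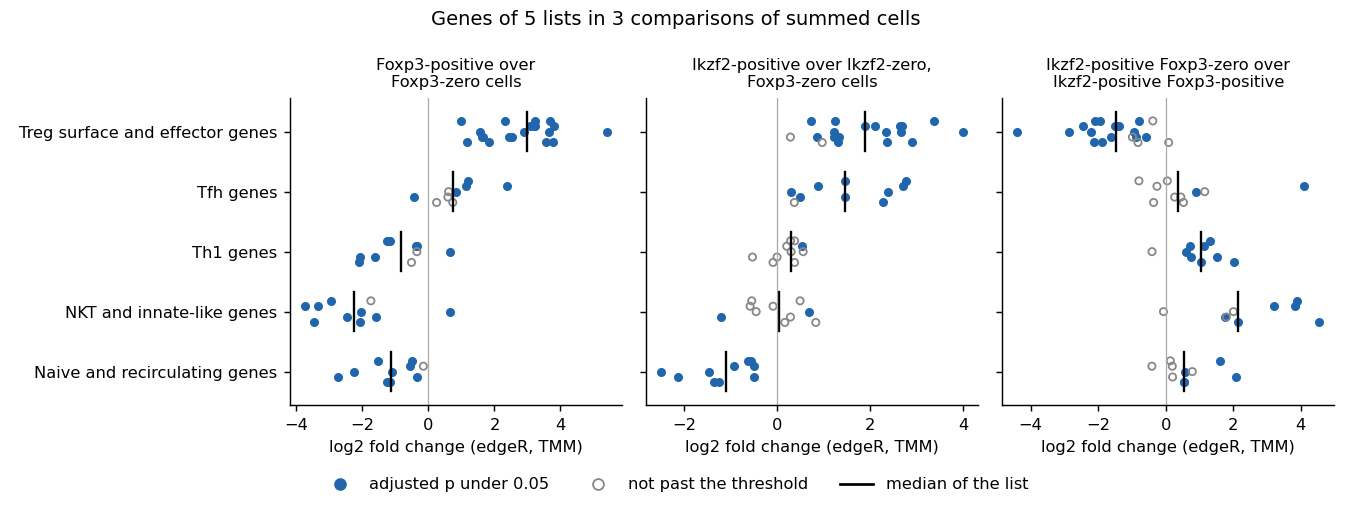
Log2 fold changes (horizontal axis) of the genes of 5 lists in 3 comparisons: Foxp3-positive against Foxp3-zero cells, Ikzf2-positive against Ikzf2-zero cells among Foxp3-zero cells, and Ikzf2-positive Foxp3-zero against Ikzf2-positive Foxp3-positive cells. Filled points passed an adjusted p of 0.05 and bars are list medians, which for Treg surface genes are 2.99, 1.88 and -1.48.

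Of the other Ikaros-family genes, Ikzf1 ran the opposite way to Helios and Eos, and Ikzf3 the same way by a smaller fold. Ikzf1 was lower in Foxp3-positive cells (131 CPM against 204 CPM in Foxp3-zero cells, -0.87 ± 0.08, edgeR adjusted p = 1.14e-12), and higher in 2 of 16 samples. It was also lower in Ikzf2-positive than in Ikzf2-zero cells among Foxp3-zero cells (177 against 207 CPM, -0.42 ± 0.06). By library size this was -0.21 (edgeR adjusted p = 0.0168). Outside the Treg-like clusters Ikzf1 was -0.28 with TMM but -0.07 by library size (edgeR adjusted p = 0.639). Ikzf3 was higher in Foxp3-positive cells (117 CPM against 64.4 CPM, 0.60 ± 0.12, adjusted p = 1.26e-04, 14 of 16 samples), but it read -0.025 in thinned cells. Among Foxp3-zero cells it was higher in Ikzf2-positive than in Ikzf2-zero cells (95.6 against 60.4 CPM, 0.35 ± 0.10, edgeR adjusted p = 0.0193, 14 of 16 samples), and outside the Treg-like clusters as well (0.33 ± 0.11, adjusted p = 0.0493). The first of these fell short in experiment 1 alone (0.19), in thinned cells (0.26) and without VAT replicate 2 (0.31). Ikzf5 did not pass the test (30.1 against 26.8 CPM, -0.14, adjusted p = 0.679), and its sign turned to 0.053 by library size. Between tissues Ikzf3 was lower in BAT than in SAT (-1.17 ± 0.11) and VAT (-0.83 ± 0.11) and higher in SAT (1.35 ± 0.11) and VAT (1.01 ± 0.11) than in spleen, the direction Ikzf2 had in these contrasts. Ikzf5 was called in none of the 6.

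Finally, the genes most alike to each member were taken by Pearson's correlation of log2(CPM + 10) over 25 sums of cells by cluster and library, among 9404 genes. These sums share 2 libraries and differ in depth, and the correlations describe them without a test. Foxp3 was most like Sdc4 (0.952), Lclat1 (0.935), Ikzf4 (0.931), Swap70 (0.912) and Dst (0.908). Ikzf2 was most like Ctla4 (0.962), Nrp1 (0.946), Tnfrsf4 (0.903), Vmp1 (0.898) and Pdcd1 (0.892). Ikzf4 was most like Foxp3 (0.931), Matk (0.903), Arhgef12 (0.886), Sdc4 (0.879) and Tnfrsf13b (0.867). Ikzf2 was closer to Foxp3 (0.886) than to Ikzf4 (0.737), and Ikzf1 ran against both Foxp3 (-0.641) and Ikzf2 (-0.567).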

How the data were processed

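The deposited files were raw counts of UMIs per gene and hashtag in each cell, which the authors made with Cell Ranger 6.1.0, per the file headers; mm10, bcl2fastq and Seurat are named in the submitters' processing notes. All 16 labelled hashtag columns were used. From these counts, cells with at least 500 genes, 1000 UMIs and under 10% mitochondrial UMIs were kept, given to a sample at a mixture posterior above 0.95, and clustered with scanpy 1.11.5 (leidenalg 0.10.2, 2000 variable genes without the members, 30 components, 15 neighbours, resolution 1.0). A cluster was named when at least 50% of a class's markers were higher by 0.5 on the log2 scale and 1 was among its top 10 genes. Sums per sample and class (at least 10 cells) were tested with edgeR 4.0.16 in R 4.3.3, with TMM factors. Genes needed a minimum count of 3 and a total of 20, and the threshold was an adjusted p under 0.05. Comparisons of cell classes had the hashed sample as block, and those of tissues had the experiment as covariate. Shares were tested with exact permutations (numpy 2.4.6), over all sign flips where 100000 draws had been planned. Exact binomial intervals were made with scipy 1.17.1. Fits were tested on simulated data, where TMM put unchanged genes low in comparisons of unequal cell classes, so library-size counts stand beside. DESeq2 1.42.0, other scalings, filters, thinning and left-out samples were alternatives. Named genes are the members, listed genes, up to 8 genes per direction with the largest change that agree in direction between experiments, and the 5 genes most like each member. The members and lists were chosen with earlier results of these data known. The hashtag settings, the cluster naming rule, the Th1-like comparison and 2 exclusions (the cluster of low UMI counts and the weakest hashtags) were chosen after seeing the data. Depth per sample is given in the report, and intervals cover counting error only. Ikzf4 within Foxp3-positive cells had 2 samples and no test.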

Additional observations from a re-analysis of the deposited data

Results flagged for a closer look

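Among 40 sets of 4 hashed samples (member shares and levels by tissue), 3 held a sample far from the others, and chance alone marks about 1 in 20. All 3 concern Ikzf4, the rarest of the genes. In BAT, replicate 1 had Ikzf4 in 2.54% of Foxp3-zero cells, where the other 3 lay between 0.794 and 1.07%. The same sample had an Ikzf4 level of 8.64 CPM over all T cells, against 3.81 to 4.12 CPM in the other 3 BAT samples, from 22 UMIs. In SAT, replicate 2 had Ikzf4 in 3.10% of Foxp3-zero cells, where the other 3 lay between 0.926 and 1.15%.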

How the results depend on the processing

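The co-detection of Ikzf2 and Ikzf4 with Foxp3 and the rise of both in Foxp3-positive cells kept direction and call under every alternative run, including both exclusions added after the data were seen. Depth limits the precision of Ikzf4 (449 UMIs in T cells) and of comparisons with few cells. Thinned to 2000 UMIs, differences in the Ikzf2 share of T cells shrank to -8.45 points (BAT minus SAT), -9.25 (BAT minus VAT), 4.29 (SAT minus spleen) and 5.10 (VAT minus spleen), those of Foxp3-zero cells to -6.53 (BAT minus VAT), 3.14 (SAT minus spleen) and 3.59 (VAT minus spleen), and Ikzf4, BAT minus spleen, to -0.509 points of T cells. The Ikzf4 share of Foxp3-positive cells, BAT minus spleen, changed sign when thinned (4.56 points, against -5.09 unthinned; 5 to 19 such cells per BAT sample). At 2 Foxp3 UMIs, the Ikzf2 share of Foxp3-positive cells was 26.9 points higher in SAT than in spleen and Ikzf4 8.67 points higher in BAT than in SAT. By experiment, BAT minus spleen in Foxp3-zero cells was -0.194 and -3.51 points for Ikzf2 and -0.131 and -2.02 for Ikzf4.

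Levels by tissue over all T cells in experiment 2 alone fell short for Foxp3 (BAT minus SAT -1.01, BAT minus VAT -0.98, BAT minus spleen -0.75) and for Ikzf2 (SAT minus spleen 0.34, VAT minus spleen 0.22), and Foxp3 turned to 0.027 for SAT minus VAT; in experiment 1 alone Ikzf2 fell short for BAT minus spleen (-0.48) and Foxp3 turned to -0.24 for SAT minus spleen. Ikzf4 passed in 2 of 6 contrasts in experiment 2 (SAT minus spleen -0.99, VAT minus spleen -0.85), in 3 with no filter (BAT minus spleen -0.79, SAT -0.77, VAT -0.75) and in 1 with strict hashtag calls (VAT minus spleen -0.84). Among Foxp3-positive cells, Ikzf2 for SAT minus spleen fell short with DESeq2 (0.63), in experiment 2 (0.38) and thinned (0.54). VAT minus spleen passed with RLE (0.53), library size (0.55) and no filter (0.52), BAT minus SAT passed with no filter (-0.60), and BAT minus spleen turned negative in experiment 2 (-0.27), with strict calls (-0.046) and thinned (-0.025). Among Foxp3-zero cells, Ikzf2 for BAT minus spleen fell short in experiment 1 (-0.44) and SAT minus spleen in experiment 2 (0.16) and thinned (0.26). VAT minus spleen passed in experiment 1 (0.90), by library size (0.39) and with no filter (0.31), and turned to -0.034 in experiment 2; Ikzf4 passed in 2 of 6 contrasts in experiment 2 and 2 with no filter. Label numbers did not pair the samples: correlations of same-numbered deviations ran from -0.303 to 0.101, and a replicate block on the number moved VAT minus spleen of Ikzf2 in Foxp3-positive cells to 0.53, past the threshold.

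Of single genes, Foxp3-positive against Foxp3-zero cells gave Ikzf3 -0.025 when thinned, Ikzf5 0.053 by library size and 0.066 with sums per library, and with DESeq2 Klra5 1.03, Klra7 1.19 and Plce1 0.94, all 3 at 0 UMIs in Foxp3-positive cells. Genes called numbered 1041 and 1359 in experiments 1 and 2 (2128 in both). For Ikzf2-positive cells without against with Foxp3, Cxcl2 was 0.50 when thinned, and Ikzf4 missed the threshold at 2 Foxp3 UMIs (-0.92), in experiment 2 (-0.78) and thinned (-0.39). Genes called numbered 416 with DESeq2, 318 and 336 by experiment, 405 with no replicate block and 182 thinned (708). For Ikzf2 within Foxp3-positive cells, Ifit3 was -0.018 with sums per library, Ugcg 0.17 thinned, and Ikzf4 passed with sums per library (1.33); genes called numbered 61 with DESeq2, 93 and 54 by experiment, 42 with no replicate block, 700 per library and 4 thinned (156). Among Foxp3-zero cells they numbered 342 and 912 by experiment, 880 with no replicate block and 2217 per library (1426). Outside Treg-like clusters they numbered 201 in experiment 1, 583 with no replicate block and 2036 per library (938), and Ikzf4 passed with DESeq2 (1.28), library size (1.46) and sums per library (1.47). In Th1-like cells Cldnd1 (-0.10) and Tnfrsf4 (-0.24) turned when thinned, and genes called numbered 12 with DESeq2, 8 and 14 by experiment, 23 at a minimum count of 10, 10 with no replicate block, 68 per library and 172 thinned (45). For Ikzf4 in Foxp3-zero cells, Ifng was 1.29 with at least 20 cells, and genes called numbered 28 with RLE, 41 in experiment 2, 54 at a minimum count of 10, 29 by library size, 55 with no filter, 1 with no replicate block and 212 per library (100).

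Without each sample in turn, Foxp3 for BAT minus spleen ran from -1.38 to -0.83 and for SAT minus spleen from -0.16 to 0.22, and Ikzf4 from -1.0 to -0.58 (SAT minus spleen) and -1.06 to -0.50 (VAT minus spleen). Ikzf2 in Foxp3-positive cells ran from 0.40 to 0.84 (SAT minus spleen), 0.30 to 0.73 (VAT minus spleen), -0.13 to 0.30 (BAT minus spleen) and -0.00071 to 0.21 (SAT minus VAT), in Foxp3-zero cells from 0.22 to 0.40 (VAT minus spleen), and Ikzf4 outside Treg-like clusters from 0.93 to 1.42. The Th1-like comparison called 25 to 47 genes and that of Ikzf4 in Foxp3-zero cells 21 to 41. The comparison of Ikzf2 within Foxp3-positive cells could not be fitted with at least 20 cells or at 2 Foxp3 UMIs, nor that of Ikzf4 in Foxp3-zero cells in experiment 1 alone. The cause of these changes was not tested.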
